A study of Mus musculus with 80 samples.

Results

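The comparison set mouse embryonic stem (ES) cells that lack Sall4 and had been given a mutant SALL4A against Sall4 knockout (KO) cells that had not. It holds 4 of the 80 samples of the series, 2 libraries of KO plus mutant and 2 of KO, chosen by their labels. The KO genotype is Sall4 delta/-, with both copies of the gene altered. The cells of KO plus mutant are that KO transfected with mutant Sall4A, and in replicate 2 the label names a Flag-SALL4A-MUT transgene. Which residues were changed, the promoter of the transgene and whether the cells are clones are not given in the sources used here. Replicate 1 of each group carries the strain label C57BL/6J, and replicate 2 carries 129P2/OlaHsd and the cell line E14.1. Both KO libraries are nevertheless tied to a single biological sample record in the labels, and so are both libraries of KO plus mutant. No label names separate cultures, and p-values therefore reflect only the spread of the libraries in the fit, part of which may be technical. Beside them stand 2 libraries of Sall4 het (Sall4 flox/-) and 1 of KO cells transfected with wild-type SALL4A. The het libraries were also in the fit, for the estimate of the spread, while the KO plus wild type library was not.

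SALL4 is a zinc finger protein of the spalt family that is abundant in pluripotent cells, binds DNA and is found with the NuRD deacetylase complex. Its long isoform, SALL4A, is studied in this series together with the TET dioxygenases, which oxidise 5-methylcytosine step by step. Supplying a mutant protein to knockout cells asks which RNAs differ once a changed SALL4A is present.

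RNA was measured by sequencing. Replicate 1 is in FPKM (fragments per kilobase, adjusted to the mapped total) and replicate 2 in RPKM (the same for reads), so each KO plus mutant library was compared with the KO library of its own replicate, called a pair here. Each KO plus mutant library was scaled to its KO library by the median ratio, and ratios are log2 of scaled value plus 1, which understates the change of low genes. Levels below are the deposited values, in the order FPKM for replicate 1 and RPKM for replicate 2. Read totals are not part of these units, so depth is unknown and no counting error is given. In replicate 1 the tables of KO and KO plus mutant were made with different gene models. Of 20794 symbols with 1 entry in each of them, 24.7% have the same start and end, against 100% of 17817 in replicate 2. The KO plus wild type table has the format of KO plus mutant replicate 1, and the het table of replicate 1 that of KO replicate 1.

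Sall4 RNA was not low in the KO libraries. Sall4 (chromosome 2, 168573831 to 168593608 in mm9, over the gene's whole span) stood at 358 in KO and 77.4 in KO plus mutant in replicate 1, and at 218 and 161 in replicate 2. The mean log2 change was -0.996 ± 0.65 (SE, n = 2 per group), with a limma adjusted p of 0.626, and the ratios of the pairs were -1.92 and -0.07. The deposited values were lower with the add-back in both replicates although these cells were given SALL4A. After scaling, KO plus mutant replicate 2 was at 208, close to the 218 of KO, so the lower level rests on replicate 1. A value over the whole gene includes parts that a deletion may leave, so it checks no label, and groups are named here by label alone. Sall1, the closest relative in these cells by level, was 49.7 in KO and 43.9 in KO plus mutant in replicate 1 and 67.9 and 28.5 in replicate 2. Its pair ratios, 0.10 and -0.87, differ in sign. Sall2 was low in all 4 libraries, between 0.866 and 3.62. Sall3 was 2.25 and 1.36 in KO and 0.203 in KO plus mutant replicate 1, and the table of replicate 2 does not list it.

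ES cell markers were high in all 4 libraries. Pou5f1 ranged from 463 to 863, Zfp42 from 396 to 485 and Tdgf1 from 458 to 616. Summed over the 6 markers listed in all 4 tables, the deposited level was 1905 in KO and 2428 in KO plus mutant in replicate 1 and 2570 and 2159 in replicate 2. Scaling divides the KO plus mutant values by 0.823 and 0.775, and the scaled sum was above that of KO in both replicates. Nanog was 88.9 and 208 in KO and 386 and 233 in KO plus mutant. Its ratio was 2.39 in pair 1 and 0.53 in pair 2, and the het libraries were at 138 and 397.

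Of the 11764 genes tested with limma, 0 passed (0%) at a 0.05 threshold on the adjusted p, the smallest being 0.3125. At an unadjusted p under 0.05 there were 618 genes higher (5.25%) and 538 lower (4.57%) with the mutant. Leaving out the second KO plus mutant library gave 866 calls, 325 of them higher and 541 lower, and leaving out the first gave 0. Such a fit takes the spread of the single remaining mutant library from the other groups. A description by size was therefore used beside the test. It took the 8061 genes with a value of 5 or above in either library of both pairs, of which 128 (1.59%) were at least 2-fold higher with the mutant in both pairs and 60 (0.744%) at least 2-fold lower. Another 107 (1.33%) were 2-fold in opposite directions. In replicate 1 alone 591 (7.33%) were 2-fold higher and 981 (12.2%) lower, and in replicate 2 alone 343 (4.26%) and 121 (1.5%). As a description across genes, which are not independent, the ratios of the pairs were related with Pearson's r at 0.150 and Spearman's rho at 0.278, and 60.6% of genes had the same sign. The ratios of pair 1 had an SD of 1.10 and those of pair 2 of 0.563.

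**Figure D1:**
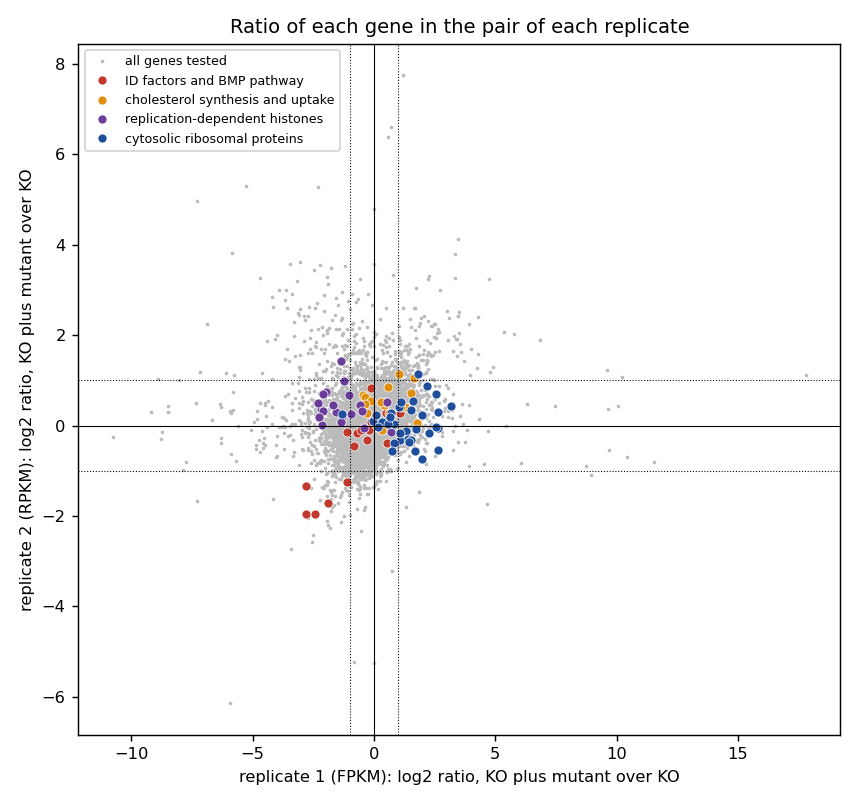
Each point is 1 gene of the 11764 tested, with its log2 ratio of KO plus mutant over KO in replicate 1 on the x axis and in replicate 2 on the y axis; dotted lines mark 2-fold. ID and BMP genes reach into the lower left, cholesterol genes lie mostly right of and above 0, and histone and ribosomal protein genes spread mainly along the x axis.

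Among the genes lowest with the mutant relative to KO were the ID family and genes of the cytoskeleton, caveolae and imprinted growth control. By the smaller ratio of the pairs, the first 6 at a floor of 5 were Cryab, Vim, Pmp22, Cav1, Id2 and Id1, in that order. ID proteins are helix-loop-helix proteins that lack a DNA-binding region and hold basic helix-loop-helix factors inactive. Their genes are classic targets of BMP signalling, which together with LIF keeps mouse ES cells from differentiating. All 4 family members were more than 2-fold lower in both pairs, against 0.744% of the 8061 genes compared. Id4 lies outside the naming rule and was added after its values were seen, to complete the family.

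Id1 (chromosome 2, 152561986 to 152563146 in mm9) was 171 in KO and 19.5 in KO plus mutant in replicate 1, and 117 and 22.9 in replicate 2. The mean log2 change was -2.37 ± 0.38 (SE, n = 2 per group; limma adjusted p of 0.332). Both mutant libraries were below both KO libraries, with the het libraries between them at 54.1 and 88.1. Id2 (chromosome 12, 25778665 to 25780957) was 49.1 and 6.78 in replicate 1 and 41.2 and 7.60 in replicate 2, a change of -2.20 ± 0.27 (adjusted p of 0.3125 in limma). Its mutant values also lay below the het values of 12.6 and 16.2. Id3 (chromosome 4, 135699411 to 135701670) was 130 and 14.6 in replicate 1 and 49.1 and 14.7 in replicate 2, a change of -2.07 ± 0.44 (adjusted p of 0.350 in limma). The mutant libraries were alike and the KO libraries were not, so the ratio was -2.81 in pair 1 and -1.33 in pair 2. Id4 (chromosome 13) was 14.6 and 5.08 in replicate 1 and 8.99 and 2.47 in replicate 2, a change of -1.19 ± 0.25 (adjusted p of 0.350 in limma). KO plus wild type was at 23.1, 7.65, 26.5 and 4.49 for Id1, Id2, Id3 and Id4, nearer to the mutant libraries than to KO.

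**Figure D2:**
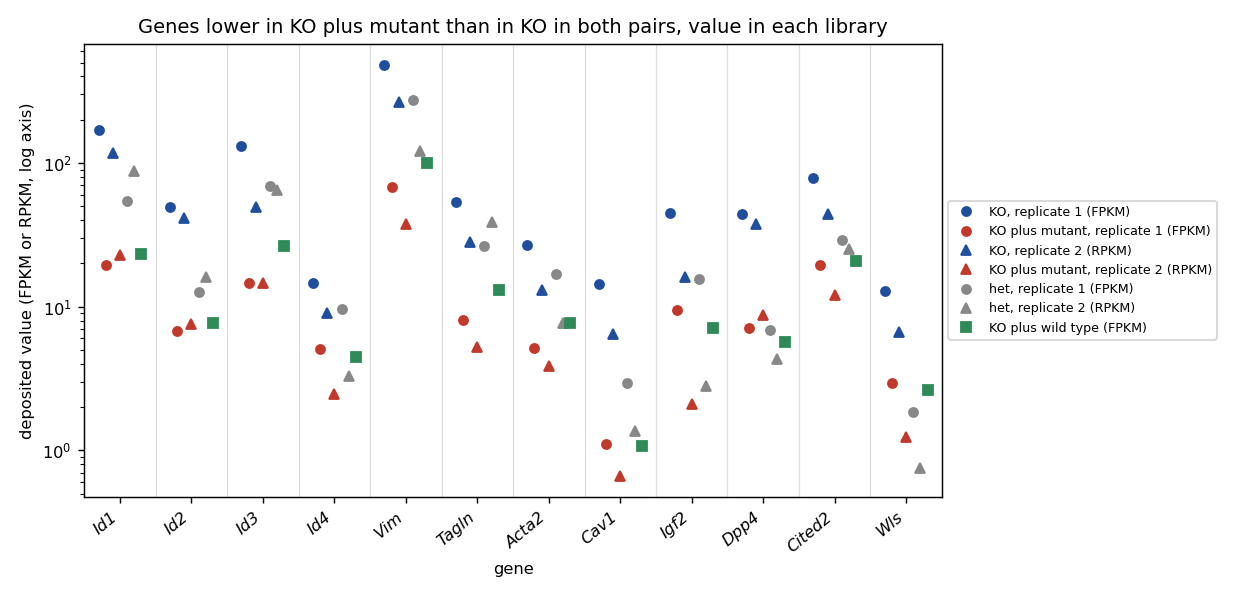
Deposited values of 12 genes that were at least 2-fold lower with the mutant in both pairs, on a log axis; blue is KO, red KO plus mutant, grey het and green KO plus wild type, circles and squares are FPKM and triangles RPKM, and each mark is 1 library. For Id1 the red marks are at 19.5 and 22.9 and the blue at 171 and 117, and in every gene shown both red marks lie below both blue ones.

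Because the ID genes were lower together, the 250 bases before the start of each of the 3 that RefSeq's promoter table holds (GRCm38.p6) are shown, 5′ to 3′ on the gene's strand. Capitals mark matches, on either strand, to any of 4 motifs. They are the CCAAT box, the TATA box spelled TATAAA, a form of the sterol regulatory element spelled TCACNCCAC, and the GC-rich SMAD element spelled GGCGCC.
Id2, chr12:25096093-25096342, minus strand: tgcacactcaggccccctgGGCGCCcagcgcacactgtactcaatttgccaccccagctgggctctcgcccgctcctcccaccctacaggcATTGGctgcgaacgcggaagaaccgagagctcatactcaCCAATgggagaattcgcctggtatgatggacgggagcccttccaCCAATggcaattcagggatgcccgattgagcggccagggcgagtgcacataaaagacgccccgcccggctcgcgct
Id3, chr4:136143572-136143821, plus strand: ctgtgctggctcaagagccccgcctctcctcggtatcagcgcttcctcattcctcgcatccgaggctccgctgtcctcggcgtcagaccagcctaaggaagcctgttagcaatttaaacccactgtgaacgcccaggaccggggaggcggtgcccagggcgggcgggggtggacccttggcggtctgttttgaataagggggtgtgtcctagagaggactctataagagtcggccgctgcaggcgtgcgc
Id4, chr13:48260866-48261115, plus strand: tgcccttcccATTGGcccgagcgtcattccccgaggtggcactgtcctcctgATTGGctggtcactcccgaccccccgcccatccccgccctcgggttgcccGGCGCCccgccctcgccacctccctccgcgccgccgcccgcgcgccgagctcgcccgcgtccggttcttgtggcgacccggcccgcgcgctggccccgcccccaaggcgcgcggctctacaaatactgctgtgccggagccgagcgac
Id2 holds 3 CCAAT matches, 159, 120 and 76 bases before the start, and a GGCGCC 231 bases before it. Id4 holds 2 CCAAT matches and a GGCGCC 148 bases before the start. Id3 holds no match to the 4 motifs in this window, which says only that these letters are not in it. Of the 15 members of the ID and BMP list with a promoter in the table, 8 hold the CCAAT box and 7 the GC-rich element, against 37.5% and 10.8% of all 27025 genes. Those shares are over all genes with a RefSeq promoter, not over the genes tested here or genes matched for base content. A match is a description and not a binding site.

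Of the ID and BMP list, 17 of 25 genes were tested. In both pairs 11 were lower and 2 higher, against 30.4% and 30.1% of all genes, and the list median was -0.32 against -0.01 for all genes. At 5 or more in each pair there were 10 members, of which 5 were 2-fold lower in both pairs and 0 were 2-fold higher. Over all 8061 genes at that floor the shares were 0.744% and 1.59%. Besides the ID genes this was Bmp1, at 8.55 and 1.28 in replicate 1 and 5.07 and 0.668 in replicate 2, which encodes a procollagen protease and no BMP ligand. The ligand gene Bmp4 was 27.5 and 13.4 in replicate 1 and 24.7 and 17.0 in replicate 2, a log2 change of -0.44 ± 0.24. The receptor gene Bmpr1a was 19.05 and 8.44 in replicate 1 and 13.7 and 7.55 in replicate 2, a change of -0.64 ± 0.24. The signal transducers Smad1 and Smad5 differed little, with changes of 0.38 ± 0.22 and -0.15 ± 0.23. The inhibitory Smad7 had opposite signs in the pairs, -0.11 and 0.84. The difference in size between the ID genes and these members of their list was not tested.

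Genes of the cytoskeleton formed the next group. Vim, which encodes the intermediate filament protein vimentin (chromosome 2, 13495553 to 13504453 in mm9), was 484 in KO and 68.3 in KO plus mutant in replicate 1 and 265 and 37.9 in replicate 2. The log2 change was -2.47 ± 0.26 (SE, n = 2 per group; limma adjusted p of 0.3125), and the ratios were -2.53 and -2.42. Tagln, which encodes the actin-binding protein transgelin, was 53.8 and 8.04 in replicate 1 and 28.4 and 5.27 in replicate 2. Acta2, the smooth muscle actin gene, was 26.6 and 5.11 in replicate 1 and 12.97 and 3.85 in replicate 2. Tpm1, the tropomyosin gene, was 239 and 65.0 in replicate 1 and 142 and 52.0 in replicate 2. Among the list's 21 members at 5 or more in each pair, these 4 genes were at least 2-fold lower in both, against 0.744% of 8061 genes. Of the 25 members tested, 18 were lower in both pairs and 3 higher, against 30.4% and 30.1% of all genes, with a median of -0.79. On the lower side 7 had an unadjusted p under 0.05, against 4.57% of all genes. The difference was larger in replicate 1, where the list median was -1.27, than in replicate 2, where it was -0.27. The simple keratin gene Krt8 shows this, at 62.0 and 15.0 in replicate 1 and 19.05 and 14.7 in replicate 2. Srf, which encodes the factor that drives many genes of the list, was 8.29 and 7.54 in replicate 1 and 6.41 and 8.50 in replicate 2, and did not follow them.

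Cav1, the gene of the main coat protein of caveolae, was 14.3 in KO and 1.10 in KO plus mutant in replicate 1 and 6.50 and 0.661 in replicate 2. Its log2 change was -2.36 ± 0.26 (limma adjusted p of 0.3125). All 5 caveola genes tested of 8 were lower in both pairs, against 30.4% of all genes, with a median of -0.98, but Pacsin2 only by -0.05, and its sign turned with upper quartile scaling, without KO replicate 2 and without KO plus mutant replicate 1 (0.01, 0.07 and 0.04). Ptrf, the cavin-1 gene, was 11.99 and 6.62 in replicate 1 and 8.33 and 4.96 in replicate 2. Of 11 genes tested as targets or partners of the YAP and TEAD factors, which respond to cell shape and contact, 9 were lower in both pairs and 1 higher, against 30.4% and 30.1% of all genes, with a median of -0.68. Cyr61, a secreted matrix protein gene and a direct target, was 23.1 and 4.39 in replicate 1 and 9.89 and 2.10 in replicate 2, in gene models of the same span. Ctgf, its relative, was 30.0 and 12.2 in replicate 1 and 20.04 and 7.09 in replicate 2. Its change was -1.01 ± 0.53, and its het values of 16.8 and 38.3 lay below and above both KO values. Yap1 itself changed by -0.21 ± 0.23.

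Genes of the basement membrane and matrix were lower by smaller amounts. Of 23 tested, 17 were lower in both pairs and 1 higher (Timp1, an inhibitor of metalloproteases), against 30.4% and 30.1% of all genes, and the median was -0.48 in pair 1 and -0.43 in pair 2. Serpinh1, the collagen chaperone gene, was 71.9 and 23.1 in replicate 1 and 44.1 and 15.5 in replicate 2, a log2 change of -1.22 ± 0.29. Among 17 members at 5 or more in each pair it was the 1 at least 2-fold lower in both, against 0.744% of 8061 genes. Below that floor Timp2, another inhibitor of metalloproteases, had ratios of -1.25 and -1.08, and the collagen gene Col5a2 -1.16 and -1.43. Lamc1, a laminin chain gene, was 54.5 and 28.8 in replicate 1 and 62.8 and 27.7 in replicate 2. The collagen IV genes Col4a1 and Col4a2 changed by -0.43 ± 0.23 and -0.57 ± 0.24. Fn1, the fibronectin gene, at 91.9 and 81.0 in replicate 1 and 87.5 and 59.3 in replicate 2, had opposite signs in the pairs. Annexin genes, whose proteins bind membranes through calcium, moved unequally. Anxa3 was 24.3 and 5.09 in replicate 1 and 17.5 and 2.22 in replicate 2, in gene models of the same span. Anxa2 was 140 and 52.5 in replicate 1 and 110 and 44.7 in replicate 2. Anxa7 and Anxa11 had changes of 0.25 ± 0.23 and 0.09 ± 0.23. Of the list of annexins and S100 proteins, 13 members were at 5 or more in each pair. In both pairs 2 were 2-fold lower and 1 was 2-fold higher, against 0.744% and 1.59% of 8061 genes. The higher gene was S100a13, at 2.31 and 10.1 in replicate 1 and 3.91 and 7.65 in replicate 2.

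Levels of some markers of other cell types also differed between the libraries, and their part in the result was not tested. Of 9 fibroblast markers, 4 are listed in all 4 tables, and their summed level was 9.72 in KO and 7.54 in KO plus mutant in replicate 1 and 6.70 and 3.58 in replicate 2. The defining fibroblast genes Dcn and Lum were at 0.117 and 0.178 in KO replicate 1 and listed at 0 in KO plus mutant replicate 1, and Thy1 went the other way, with 1.23 and 1.33 in KO and 4.03 and 2.36 in KO plus mutant. Outside the sum, Col3a1 was 2.25 and 0.158 in replicate 1 and 1.30 in KO replicate 2, and is not listed for KO plus mutant replicate 2. Postn was 0 and 0.0384 in replicate 1. Of 7 primitive endoderm markers, 3 are listed in all 4 tables and summed to 8.56 and 1.77 in replicate 1 and 6.33 and 1.195 in replicate 2. Dab2, an endocytic adaptor gene, led them with 5.32 and 0.711 in replicate 1 and 3.61 and 0.518 in replicate 2. Of 5 trophoblast markers, 3 are listed in all 4 tables and summed to 9.57 and 3.08 in replicate 1 and 5.77 and 3.07 in replicate 2, and that difference lay mostly in Hand1, at 7.33 and 1.26 in replicate 1 and 3.23 and 0.364 in replicate 2. Eomes was 1.94 and 1.79 in replicate 1 and 2.04 and 1.85 in replicate 2, and Elf5 was lower in replicate 1 and higher in replicate 2, at 0.294 and 0.0284 against 0.502 and 0.859. Outside the sum, Cdx2 was 2.58 and 0.175 in replicate 1 and 1.09 in KO replicate 2, and is not listed for KO plus mutant replicate 2. Gata3 was 0.940 and 0.189 in replicate 2 and is not listed for KO replicate 1. Whether cells of these types add to the levels of Vim or Id1 was not tested. In bulk RNA, fewer cells of a type and less RNA per cell cannot be told apart.

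**Figure D3:**
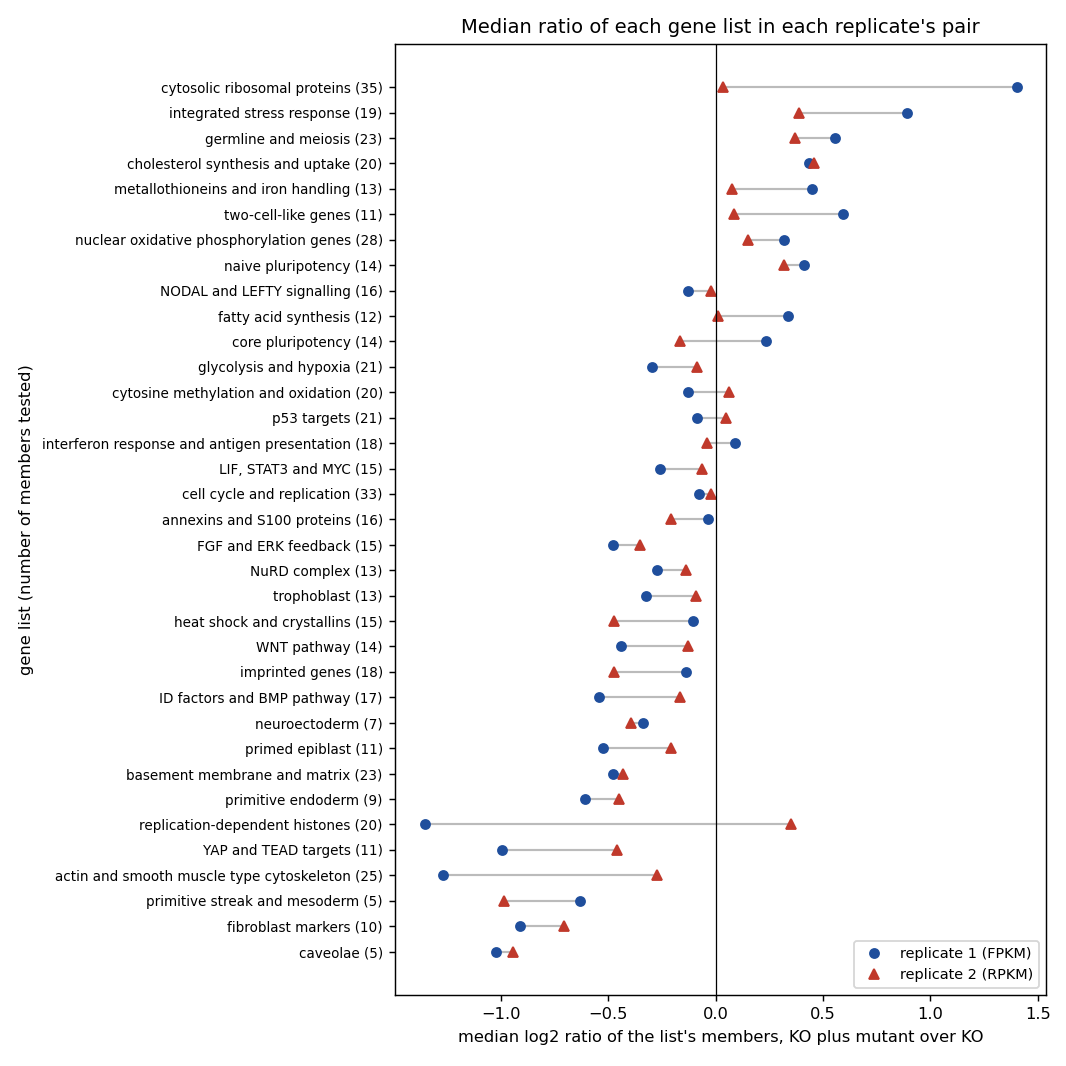
Median log2 ratio of KO plus mutant over KO for each gene list with at least 5 members tested (number in brackets), in the replicate 1 pair (blue circles) and the replicate 2 pair (red triangles). Caveolae lie at -1.02 and -0.94, cholesterol genes stand at 0.44 and 0.46, and the histone list lies on opposite sides of 0.

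Imprinted genes, which are expressed from the copy of 1 parent and whose expression depends on cytosine methylation at control regions, held some of the lowest ratios. Igf2, the growth factor gene (chromosome 7, 149836672 to 149856261 in mm9), was 45.2 in KO and 9.49 in KO plus mutant in replicate 1 and 16.1 and 2.11 in replicate 2. Its log2 change was -2.04 ± 0.25 (SE, n = 2 per group; limma adjusted p of 0.3125), in gene models of the same span. Nnat, the neuronatin gene, was 6.58 and 0.799 in replicate 1 and 9.69 and 1.15 in replicate 2, a change of -2.03 ± 0.22. Here the other libraries did not side with the mutant, as het was at 17.6 and 19.003 and KO plus wild type at 24.8. Cdkn1c, which encodes an inhibitor of cyclin-dependent kinases, was 12.9 and 3.34 in replicate 1 and 9.75 and 1.78 in replicate 2. The amino acid transporter gene Slc38a4 was on the other side, at 14.9 and 33.8 in replicate 1 and 13.8 and 33.7 in replicate 2, a change of 1.497 ± 0.24. Of 18 imprinted genes tested, 12 were lower in both pairs and 3 higher, against 30.4% and 30.1% of all genes. Of 13 at 5 or more in each pair 4 were 2-fold lower and 1 was 2-fold higher in both, against 0.744% and 1.59%. The other of the 4 was Peg3, a zinc finger gene, at 38.4 and 9.94 in replicate 1 and 19.097 and 5.83 in replicate 2. Dlk1, a NOTCH ligand relative below the floor of 5, had a change of -1.69 ± 0.20. Snrpn and Igf2r had changes of -0.18 ± 0.25 and 0.15 ± 0.29.

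Further genes with large ratios came from several functions. Cryab, which encodes a small heat shock protein, was 30.4 and 3.60 in replicate 1 and 20.7 and 2.07 in replicate 2. Its het values of 66.5 and 3.96 lay far apart, and its change of -2.56 ± 0.83 had the widest error of the lower genes named by rank. Pmp22, a myelin membrane protein gene, was 21.9 and 2.08 in replicate 1 and 7.35 and 0.789 in replicate 2. Cntfr, the receptor gene of ciliary neurotrophic factor, was 8.38 and 1.46 in replicate 1 and 6.88 and 0.869 in replicate 2. Coch, the cochlin gene, was 11.2 and 2.22 in replicate 1 and 10.3 and 1.75 in replicate 2. Dpp4, a cell surface peptidase gene, was 44.4 and 7.13 in replicate 1 and 37.7 and 8.74 in replicate 2, and the het libraries were as low, at 6.88 and 4.35. Rbms1, an RNA-binding protein gene, was at 86.7 and 11.2 in replicate 1 and 49.0 and 14.2 in replicate 2. Cited2, a co-regulator that binds CBP and p300, was 78.5 and 19.5 in replicate 1 and 43.8 and 12.1 in replicate 2. Aim2, a sensor of cytosolic DNA, was 47.6 and 8.22 in replicate 1 and 55.4 and 16.4 in replicate 2. For every gene of this paragraph both mutant libraries were below both KO libraries. The genes were named for low ratios in both pairs, so that order was largely set by the choice.

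Signalling genes were mixed. Of 14 WNT pathway genes tested, 8 were lower in both pairs and 5 higher, against 30.4% and 30.1% of all genes, so the share on the higher side was near that background. Wls, which carries WNT ligands out of the cell, was 12.9 in KO and 2.94 in KO plus mutant in replicate 1 and 6.64 and 1.23 in replicate 2, a log2 change of -1.58 ± 0.22 (limma adjusted p of 0.332). Tcf7l1, a repressor of WNT targets, was 68.6 and 21.7 in replicate 1 and 69.0 and 23.1 in replicate 2, a change of -1.27 ± 0.23. The targets Axin2 and Notum changed by -0.74 ± 0.22 and -1.18 ± 0.28, while Tcf7 and Ccnd1 were on the higher side at 0.72 ± 0.26 and 0.63 ± 0.25. In FGF signalling the ligand gene Fgf4 was 23.4 and 44.9 in replicate 1 and 23.1 and 49.0 in replicate 2, a change of 1.301 ± 0.26 in gene models of the same span. Dusp6, a phosphatase that damps ERK and is a readout of it, was 53.01 and 22.7 in replicate 1 and 39.0 and 16.9 in replicate 2, a change of -0.86 ± 0.34. Spry2 and Etv4 changed by 0.14 ± 0.22 and -0.06 ± 0.31.

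The genes highest with the mutant, relative to KO, did not form a list. Pbld1 (chromosome 10, 62524329 to 62540710 in mm9) was 19.24 in KO and 166 in KO plus mutant in replicate 1 and 9.5001 and 113 in replicate 2. Its log2 change was 3.57 ± 0.47 (SE, n = 2 per group; limma adjusted p of 0.3125), and both mutant libraries lay above both KO and both het libraries, the latter at 36.9 and 61.7. Slc7a14, of an amino acid transporter family, was 1.79 and 22.4 in replicate 1 and 0.714 and 12.01 in replicate 2. Cxcr2, a chemokine receptor gene, was 13.3 and 93.3 in replicate 1 and 17.7 and 82.8 in replicate 2. Lcmt2, whose product modifies a base of phenylalanine tRNA, was 14.3 and 140 in replicate 1 and 24.7 and 114 in replicate 2. Its het value was 84.5 in replicate 2 against 27.3 in replicate 1. The het libraries differed likewise for Ripply3, a co-repressor gene, which was 5.52 and 58.2 in replicate 1, 11.2 and 50.0 in replicate 2 and 9.63 and 68.7 in het.

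Tapbpl, a tapasin relative that edits peptides on MHC class I, was 2.96 and 48.6 in replicate 1 and 4.56 and 19.8 in replicate 2. Chrna1, the acetylcholine receptor subunit of muscle, was 2.09 and 27.1 in replicate 1 and 2.99 and 15.8 in replicate 2. Mpv17l was 20.2 and 108 in replicate 1 and 24.9 and 87.6 in replicate 2, and Synrg, an AP1 adaptor partner, was 5.30 and 32.4 in replicate 1 and 5.84 and 21.4 in replicate 2. Of the 15 ranked first on the higher side, Ppm1k alone had gene models of the same span, and this mitochondrial phosphatase gene was 4.70 and 21.1 in replicate 1 and 3.12 and 29.2 in replicate 2, a log2 change of 2.73 ± 0.34 (limma adjusted p of 0.3125). Cyp2e1, Ppp1r16b, Pilra, Sfxn4 and Tnfsf10 completed the 15, with changes from 2.27 to 2.87. In the single KO plus wild type library Pbld1 was at 431 and Lcmt2 at 403 as deposited. Of the 128 genes 2-fold higher in both pairs, 126 were above KO replicate 1 in that library as deposited, and 91 above KO plus mutant replicate 1. Of the 60 genes 2-fold lower, 58 were below KO replicate 1 there, and 19 below KO plus mutant replicate 1. KO replicate 1 also served to choose these genes, so the counts are a description. They do not set the mutant apart from wild-type SALL4A. The table of that library has the format of KO plus mutant replicate 1.

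**Figure D4:**
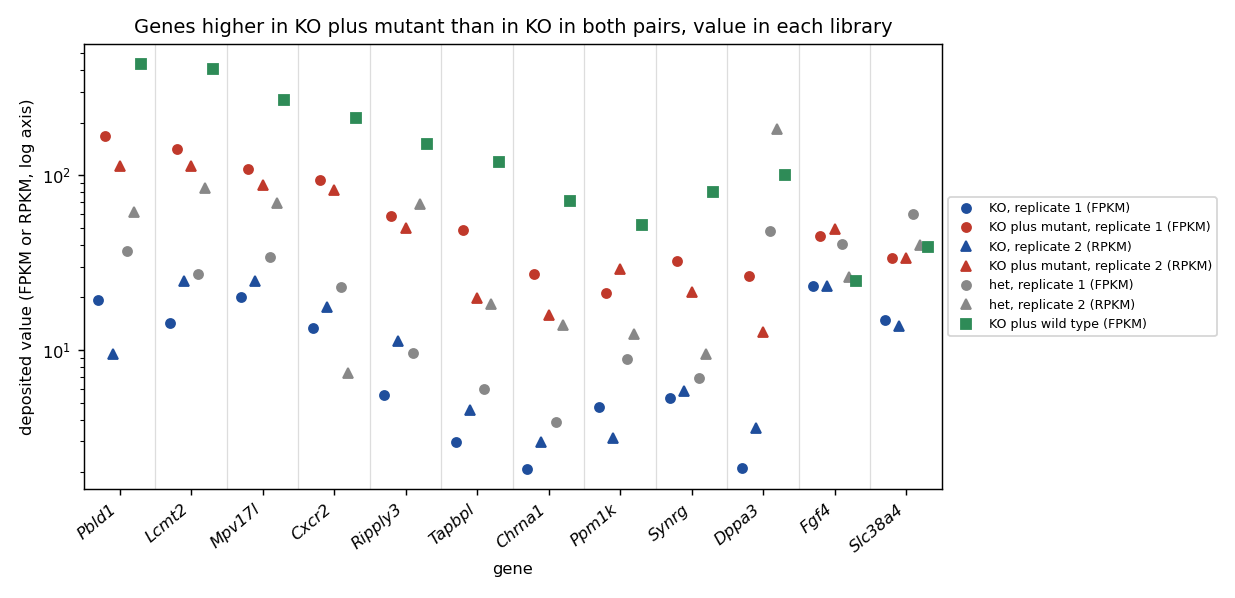
Deposited values of 12 genes at least 2-fold higher with the mutant in both pairs, on a log axis; blue is KO, red KO plus mutant, grey het and green KO plus wild type, circles and squares are FPKM and triangles RPKM, and each mark is 1 library. Both red marks lie above both blue ones in every gene shown, and KO plus wild type is the highest mark for Pbld1 at 431 and for Lcmt2 at 403.

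Dppa3 (Stella), which protects maternal methylation marks in the early embryo and is expressed in naive ES cells, was 2.11 in KO and 26.4 in KO plus mutant in replicate 1 and 3.58 and 12.7 in replicate 2. The log2 change was 2.67 ± 0.70 (SE, n = 2 per group; limma adjusted p of 0.413). Het stood at 47.7 and 183 and KO plus wild type at 101, so both mutant libraries lay between KO and these. Among 14 naive pluripotency genes, 6 were higher in both pairs, 1 was lower and 7 had opposite signs, against 30.1% higher and 30.4% lower over all genes. The median was 0.26, but -0.04 with values as deposited, where the median of all genes was -0.28. Dppa5a was 1442 and 4337 in replicate 1 and 2707 and 3376 in replicate 2, and Tcl1 38.9 and 53.3 in replicate 1 and 48.3 and 74.0 in replicate 2. Klf2, Nr5a2 and Klf5 had changes of -0.13 ± 0.31, -0.01 ± 0.35 and 0.03 ± 0.26. Otx2, a factor of the primed epiblast, was 15.6 and 18.8 in replicate 1 and 13.2 and 33.0 in replicate 2. Of 11 primed genes tested 6 were lower in both pairs and 2 higher, against 30.4% and 30.1% of all genes, with the adhesion gene Cdh2 at 7.46 and 1.86 in replicate 1 and 5.79 and 0.424 in replicate 2.

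Among germline genes, many of which are silenced by promoter methylation, 23 were tested. In both pairs 10 were higher and 2 lower, against 30.1% and 30.4% of all genes, and 11 had opposite signs. The median was 0.49. Tuba3a, a testis tubulin gene, was 8.93 and 18.7 in replicate 1 and 4.53 and 12.9 in replicate 2, a change of 1.46 ± 0.36. Dazl, an RNA-binding protein gene of germ cells, was 2.49 and 4.602 in replicate 1 and 1.402 and 4.22 in replicate 2. Mael, a protein gene of the piRNA pathway, was 6.95 and 10.8 in replicate 1 and 4.33 and 8.56 in replicate 2. All 3 have gene models of the same span. Of the oxidation genes, Tet1 was 19.14 and 22.6 in replicate 1 and 16.01 and 19.098 in replicate 2, a change of 0.55 ± 0.305 (limma adjusted p of 0.593). Tet2 was 7.38 and 5.597 in replicate 1 and 4.67 and 5.35 in replicate 2. Its change of 0.19 ± 0.25 turned to -0.09 with values as deposited and to -0.06 without KO plus mutant replicate 2. Tet3 was 2.48 and 1.07 in replicate 1 and 1.27 and 0.683 in replicate 2, a change of -0.43 ± 0.22. Gadd45g, a stress and growth arrest gene, was 21.2 and 3.46 in replicate 1 and 7.62 and 1.77 in replicate 2. Of the 20 genes on this list 18 were at 5 or more in each pair, and Gadd45g was the 1 that was 2-fold in both. Over all 8061 genes at that floor 0.744% were 2-fold lower and 1.59% 2-fold higher. Dnmt3a, a methyltransferase gene, was 58.1 and 8.27 in replicate 1 and 27.4 and 25.5 in replicate 2, a difference seen in 1 pair.

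Genes of cholesterol synthesis and uptake were higher as a group. Of 20 tested, 13 were higher in both pairs and 0 lower in both, against 30.1% and 30.4% of all genes, and the median ratio was 0.44 in pair 1 and 0.46 in pair 2. With values as deposited the list median was 0.13, above that of all genes at -0.28. Insig1, which retains the SREBP factors in the endoplasmic reticulum and is itself their target (chromosome 5, 28397951 to 28405201 in mm9), was 17.6 in KO and 47.4 in KO plus mutant in replicate 1 and 23.8 and 39.0 in replicate 2. The log2 change was 1.35 ± 0.25 (SE, n = 2 per group; limma adjusted p of 0.343). Sc4mol, a sterol oxidase gene, was 36.1 and 62.1 in replicate 1 and 42.4 and 72.9 in replicate 2, a change of 1.09 ± 0.22. Idi1, the isomerase of the isoprene unit, was 14.5 and 35.9 in replicate 1 and 19.21 and 25.1 in replicate 2. Both mutant libraries lay above both KO libraries for each of these 3, which were named for their ratios in both pairs. Dhcr7, of the last step of the pathway, had a log2 change of -0.01 ± 0.26, so not every member was higher. Of 12 genes of fatty acid synthesis tested, 6 were higher in both pairs and 3 lower, against 30.1% and 30.4% of all genes. Their median was 0.11. Fasn was on the lower side, 56.6 and 30.1 in replicate 1 and 40.8 and 20.7 in replicate 2. Scd1 was on the higher side, 5.67 and 10.5 in replicate 1 and 4.43 and 5.55 in replicate 2.

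Promoters of the 3 leading sterol genes are shown for the motif that the group shares, the 250 bases before the start in RefSeq's table (GRCm38.p6), with capitals as above.
Insig1, chr5:28071162-28071411, plus strand: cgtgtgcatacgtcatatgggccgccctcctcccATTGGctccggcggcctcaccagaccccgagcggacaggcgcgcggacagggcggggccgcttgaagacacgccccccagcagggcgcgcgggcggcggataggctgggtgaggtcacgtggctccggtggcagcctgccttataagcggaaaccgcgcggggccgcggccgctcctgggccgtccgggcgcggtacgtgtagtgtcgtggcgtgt
Idi1, chr13:8885356-8885605, plus strand: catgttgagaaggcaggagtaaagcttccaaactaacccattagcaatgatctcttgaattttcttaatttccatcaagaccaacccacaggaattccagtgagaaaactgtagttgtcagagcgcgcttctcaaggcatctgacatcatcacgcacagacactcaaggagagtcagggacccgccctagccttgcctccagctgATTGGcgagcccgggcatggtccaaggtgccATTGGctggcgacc
Sc4mol (Msmo1 in RefSeq), chr8:64733579-64733828, minus strand: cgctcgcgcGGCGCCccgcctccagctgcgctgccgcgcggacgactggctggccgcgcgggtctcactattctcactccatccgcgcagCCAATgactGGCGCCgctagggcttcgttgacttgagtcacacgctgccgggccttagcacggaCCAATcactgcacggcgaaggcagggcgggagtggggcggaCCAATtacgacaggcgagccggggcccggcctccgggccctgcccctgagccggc
All 3 hold the CCAAT box on 1 strand or the other, Insig1 216 bases before the start, Idi1 45 and 14 and Sc4mol 160, 96 and 55. Of 16 list members with a promoter in the table, 16 hold the CCAAT box, against 37.5% of all genes, and 1 holds the sterol element, against 1.22%. A gene counted once if any of its promoters held the letters, and the shares of all genes are again not limited to those tested here.

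**Figure D5:**
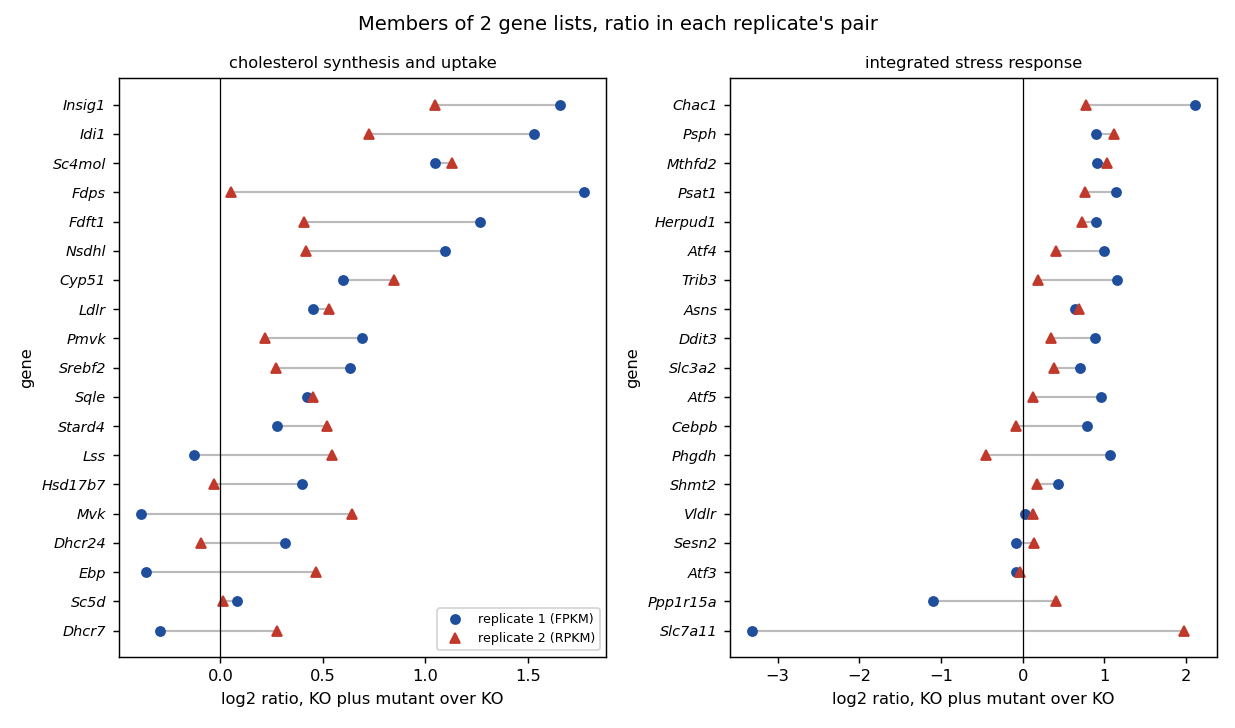
Log2 ratio of KO plus mutant over KO for the tested members of the cholesterol list, 1 of them left out, and of the integrated stress response list, with replicate 1 as blue circles and replicate 2 as red triangles joined by a grey line per gene. Insig1 (1.66 and 1.05) and Psph (0.89 and 1.12) lie right of 0 in both pairs, while Slc7a11 lies at -3.31 and 1.97.

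Targets of the integrated stress response, in which ATF4 raises amino acid supply genes, had a median of 0.55. Of 19 tested, 13 were higher in both pairs and 1 lower, against 30.1% and 30.4% of all genes. Of 16 at 5 or more in each pair, 0 were 2-fold in both, against 1.59% higher and 0.744% lower of 8061 genes. Psph, the last enzyme of serine synthesis, was 24.7 and 38.4 in replicate 1 and 26.6 and 45.7 in replicate 2, a log2 change of 1.01 ± 0.22 (limma adjusted p of 0.353). Psat1, the enzyme before it, was 94.1 and 172 in replicate 1 and 105 and 138 in replicate 2. Mthfd2, of mitochondrial folate metabolism, was 32.1 and 50.5 in replicate 1 and 45.0 and 72.2 in replicate 2. Atf4 itself was 77.2 and 128 in replicate 1 and 112 and 116 in replicate 2. Slc7a11, the cystine transporter gene, went in opposite directions, 13.1 and 0.346 in replicate 1 and 0.645 and 4.23 in replicate 2.

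Several other lists differed between the pairs or lay near all genes. Ribosomal protein genes had a median ratio of 1.4015 in pair 1 and 0.03 in pair 2, and replication-dependent histone genes -1.35 and 0.35. Of 28 nuclear genes of oxidative phosphorylation, 18 were higher in both pairs and 3 lower, against 30.1% and 30.4% of all genes. Their median was 0.302, and -0.02 as deposited, where that of all genes was -0.28. NuRD subunits had a median of -0.19, with Chd3 at 16.2 and 2.20 in replicate 1 and 10.8 and 4.41 in replicate 2, and Hdac1 at 130 and 140 in replicate 1 and 191 and 262 in replicate 2. Core pluripotency (0.10), p53 targets (0.03), cell cycle (-0.10) and interferon genes (-0.02) had medians near that of all genes, and NODAL and LEFTY genes had a median change of 0.22 with pair medians of -0.13 and -0.02. With values as deposited the core, p53 target and NODAL medians were below 0, as was that of all genes at -0.28. With upper quartile scaling the median of the interferon genes was above 0. Of 15 tested genes of LIF, STAT3 and MYC, 4 were lower in both pairs and 1 higher, against 30.4% and 30.1% of all genes. The share on the lower side was near that background, 10 had opposite signs, and the median was -0.09. Myc was 17.2 and 4.28 in replicate 1 and 10.9 and 4.45 in replicate 2 (limma adjusted p of 0.517), and Lifr had a change of 0.17 ± 0.23 that was -0.11 as deposited. Of 11 genes of the two-cell-like state, 6 were higher in both pairs and 1 lower, against 30.1% and 30.4% of all genes. Zscan4c was 18.8 and 34.0 in replicate 1 and 3.35 and 2.31 in replicate 2, with a change of 0.48 ± 1.08.

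Genes at the 2-fold limit show how the description cuts. On the higher side Mgl2, with a smaller ratio of 1.02, lay just inside and Dpy30, with 0.99 in both pairs, just outside. On the lower side Spats2l, with ratios of -1.63 and -1.001, lay just inside and Fstl1, with -1.66 and -0.99, just outside. Among the 1225 genes whose models have the same span in both pairs, 23 (1.88%) were 2-fold higher in both pairs and 9 (0.735%) were 2-fold lower.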

How the data were processed

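Per the file headers, the deposited FPKM values cover replicate 1 of Sall4 het, KO and KO plus mutant and the KO plus wild type library, and the deposited RPKM values cover replicate 2. Per the submitters' processing notes, TopHat, Bowtie 0.12.7, SAMtools and MACS 1.4.2 were used over the series, with genome build mm9; the tool that made each table and the RNA library protocol are not given in the sources used here. Per the labels, replicate 2 is mRNA-seq.

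Entries with the same symbol were summed, the 1225 entries without a gene name in the replicate 1 tables of het and KO were left out, and 18 shifted symbols of KO plus mutant replicate 2 were set by Ensembl identifier. Each library was divided by its median ratio to the KO library of its replicate over genes at 1 or more in both (0.823 and 0.775 for KO plus mutant), 1 was added and log2 taken. Genes had to be listed in all 6 tables of het, KO and KO plus mutant and to reach 1 in at least 2 of these libraries, which left 11764. The model of limma 3.58.1 (run under R 4.3.3, with a mean-variance trend in eBayes) had group and replicate number as terms. Tests are two-sided, with Benjamini-Hochberg adjustment over all these genes at 0.05. The replicate term stands for the unit. Differences between replicates 1 and 2 correlated at 0.0699 between KO and KO plus mutant, and both groups have 1 sample record, so the numbers are not used as evidence of pairing. On simulated data, limma called 43 of 50 genes changed 4-fold (2 on the log2 scale) and 3 of 50 changed 2-fold, with 16 of 11564 unchanged genes called. The simulated noise was independent between libraries, and the replicate difference was the same in every group. In the real data that difference correlated at 0.0699 between KO and KO plus mutant and at 0.5748 between het and KO. The simulated counts therefore do not give the power of the test on these libraries. Tables and plots were made in Python 3.11.15 (pandas 2.3.3; matplotlib 3.10.9).

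Named genes are the SALL and TET genes, the 15 per direction that were 2-fold in both pairs at 5 or more, ranked by the smaller ratio, the 10 per direction at 20 or more, and up to 4 members of each of 37 lists; predicted genes, clone names, pseudogenes and small RNAs were left out. Other list members are given as examples chosen after their values were seen. The members, lists and rule were chosen with earlier results of these data known. Promoters and motif counts use RefSeq tables of GRCm38.p6, in which Sc4mol was matched as a synonym. The values of 1 gene of the cholesterol list are not reported here, although the list's counts and medians include it.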

Additional observations from a re-analysis of the deposited data

Results flagged for a closer look

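The pairs of the 2 replicates differed for some genes, and these differences were not tested, because each pair holds 1 library a side and the replicates carry different strain labels and units. Of the 20 replication-dependent histone genes tested, 18 had opposite signs in the pairs, whereas 60.6% of the 8061 genes compared had the same sign. The median log2 ratio of the histone genes was -1.35 in replicate 1 and 0.35 in replicate 2. Hist1h4d was 53.1 in KO and 9.47 in KO plus mutant in replicate 1 and 5.19 and 5.19 in replicate 2. In replicate 1 the het library, whose table has the format of the KO table, was at 78.8, and KO plus wild type, whose table has that of KO plus mutant, at 17.3.

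Over all genes 107 were 2-fold in opposite directions, some histone genes among them. Fyb, an adaptor protein gene of blood cells, was 160 in KO and 0.0150 in KO plus mutant in replicate 1, and 0.395 and 32.8 in replicate 2. Het replicate 1 was at 309 and KO plus wild type at 0.00885. Rrm2b, a ribonucleotide reductase subunit gene, was 35.5 and 1.64 in replicate 1 and 16.7 and 108 in replicate 2, with het replicate 1 at 69.8 and KO plus wild type at 1.89. For each of these genes the replicate 1 values lay together by table format, and in replicate 1 format and group cannot be told apart.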

How the results depend on the processing

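Limma called 0 genes under each alternative run except without KO plus mutant replicate 2, where it called 866, so leaving out 1 library gave 0 to 866. The fit with no replicate block called 0, with a smallest adjusted p of 0.3846 and 976 genes at an unadjusted p under 0.05; the block changed no other call. The count of genes 2-fold higher in both pairs, 128, was 75 with a pseudocount of 5, 70 with values as deposited, 23 over genes of the same span, and 591 or 343 in a single pair. The count 2-fold lower, 60, was 26, 179 and 9 in the same order, 36 with a floor of 10, and 981 or 121 in a single pair. The sum of both was 101 with a pseudocount of 5, 32 over genes of the same span, and 464 to 1572 in a single pair. Without scaling the unadjusted calls split 258 higher to 1621 lower, against 618 to 538. Of 142 named genes, 7 changed sign under some alternative. As deposited the log2 change of Tet2 was -0.0906, the log2 change of Acly -0.136 and the log2 change of Lifr -0.109, and with upper quartile scaling the log2 change of Pacsin2 was 0.0144. Over the fits that leave out 1 library, the range was -0.0619 to 0.439 for Tet2, -0.174 to 0.0712 for Pacsin2 (0.0414 without KO plus mutant replicate 1), -2.11 to 0.113 for the log2 change of Sall4, -0.440 to 1.69 for the log2 change of Mt1 and -0.908 to 0.141 for the log2 change of Sall1. Leaving out KO plus mutant replicate 1 turned the sign of Sall4, Mt1 and Pacsin2, leaving out KO plus mutant replicate 2 that of Sall1 and Tet2, and leaving out KO replicate 2 that of Pacsin2. The cause was not tested, except that fewer genes entered the same-span and floor counts. Depth is unknown, so low values carry an error that these data do not give.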
